A study of Mus musculus with 32 samples.

Results

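Tek and Cdh5 are 2 of the 9030 genes named on a mouse cDNA microarray, chosen by symbol with their ratios in these arrays already known. Both mark endothelial cells, the lining of blood vessels, which also express Nox4. The array carries 1 probe for Tek (gene 21687, on chromosome 4) and 2 probes for Cdh5 (gene 12562, on chromosome 8), 3 of 20794 probes in all. RNA came from brain, kidney, muscle and pancreas of male C57BL/6 mice aged 17 weeks whose genotype is given as Nox4 knockout (-/-). The same 4 animals gave all 4 tissues, which makes 4 groups of 4 animals. Their control was pooled RNA of wild-type males, matched in strain and age, which the labels put at 4 animals in one place and at 6 in another, without naming the tissue of the pooled RNA. Every sample went onto 2 arrays, once with the knockout in Cy5 and the pool in Cy3 and once with these dyes exchanged, which gave 32 arrays. The labels say nothing of how the allele was made, and name no sorting of cells.

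Every value is a log2 ratio that likely runs knockout over pool, judged by the design text and by which channel is labelled with the knockout. With the inverse ratio, every higher becomes a lower. A ratio is not a level: no array compared tissues, so it cannot be said in which tissue either gene is most abundant, and the labelled tissues could not be checked against their defining markers. Among the probes used here 0 were annotated to Nox4. Since the ratios across the 4 tissues were known when the pair was picked, its values are given as a description, without a test.

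Tek encodes Tie2, the receptor tyrosine kinase through which angiopoietins act on endothelium. Angiopoietin-1 activates it and holds vessels quiescent, angiopoietin-2 modulates it in a way that depends on context, and the related receptor Tie1 joins it in a complex. Cdh5 encodes VE-cadherin, the cadherin of the endothelial adherens junction, which binds p120 catenin (Ctnnd1), beta-catenin (Ctnnb1) and plakoglobin (Jup) on its inner side and so ties neighbouring cells together. In brain this junction forms part of the blood-brain barrier, and in muscle it helps control how easily fluid and white cells leave vessels. In RNA of a whole organ, a lower share of endothelial cells and less of a transcript per cell cannot be told apart.

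The upstream sequence of Tek is shown for context, as a stretch of regulatory DNA of one of the pair. It is taken from RefSeq's promoter table (GRCm38.p6), in which 1 of the 2 genes had an entry. It holds the 250 bases before the annotated start, chr4:94739039-94739288 on the plus strand, with the core of the sites of ETS factors (GGAA on either strand, seen as TTCC on the other) in capitals:

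Tek: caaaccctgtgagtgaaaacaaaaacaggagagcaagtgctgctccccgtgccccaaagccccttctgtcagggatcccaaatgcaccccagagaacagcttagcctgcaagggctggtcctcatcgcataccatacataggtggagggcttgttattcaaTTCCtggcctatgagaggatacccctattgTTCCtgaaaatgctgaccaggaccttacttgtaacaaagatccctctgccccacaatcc

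ETS factors drive many endothelial genes. The core occurred 2 times in this window, where 93.4% of 32851 promoters of the same length held at least 1 and 76.8% held 2 or more, so its presence does not set Tek apart.

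Tek lay above the pool in muscle and near it elsewhere. Its log2 ratios in muscle were 0.21, 0.92, 0.43 and 0.82 in animals 1 to 4, a mean of 0.60 ± 0.33 (SD, n = 4; 1.51-fold). All 4 muscle animals were above 0, as for 6.85% of genes, and animals 2 and 4 were the highest. In brain the same animals were at 0.08, −0.41, −0.23 and −0.13, a mean of −0.17 ± 0.20 (SD, n = 4), with animal 1 alone above 0. In kidney they were at −0.07, −0.18, 0.12 and −0.09, a mean of −0.06 ± 0.12 (SD, n = 4). In pancreas they were at −0.03, −0.06, 0.01 and 0.18, a mean of 0.03 ± 0.11 (SD, n = 4). With the signs as deposited the ratios ran in the order muscle, pancreas, kidney and brain, and the animals of the last 3 tissues overlapped in every pair. The sources do not settle whether the Cy3 arrays had already been turned to the direction of the Cy5 arrays. With their signs turned the order was brain (−0.08), kidney (−0.23), muscle (−0.27) and pancreas (−0.46).

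Cdh5, with its 2 probes averaged, had the same tissue on top with the signs as deposited. In muscle its log2 ratios were 0.48, 0.71, 0.25 and 0.26, a mean of 0.42 ± 0.22 (SD, n = 4; 1.34-fold), again above 0 in all 4 animals. In brain they were at 0.12, −0.13, −0.23 and −0.47, a mean of −0.17 ± 0.25 (SD, n = 4). In kidney they were at −0.24, 0.10, 0.13 and −0.04, a mean of −0.01 ± 0.17 (SD, n = 4), and in pancreas at −0.14, 0.30, −0.39 and 0.16, a mean of −0.01 ± 0.31 (SD, n = 4). Brain, kidney and pancreas overlapped with each other in every pair. With the Cy3 signs turned brain was on top at 0.14, followed by muscle at −0.03, kidney at −0.08 and pancreas at −0.31.

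Between tissues, the log2 ratio of Tek in brain minus that in muscle was −0.77 ± 0.14 (SE of limma, shared spread of 4 tissues), in kidney minus muscle −0.65 ± 0.14, and in muscle minus pancreas 0.57 ± 0.14. For Cdh5 these differences were −0.60 ± 0.16, −0.43 ± 0.16 and 0.44 ± 0.16. The muscle animals did not overlap with those of brain or kidney for either gene. Of all genes measured in every animal, 3.24% had muscle above brain and 3.31% muscle above kidney without overlap. Against pancreas, muscle did not overlap for Tek but did for Cdh5, where the background is 2.24% of genes. Every muscle value of Tek was above every value of the other 3 tissues, as for 1.27% of genes. Nothing is read from these overlaps, since the same ratios were known when the pair was picked. The other 3 pairs of tissues differed by at most 0.20 in size for Tek and 0.16 for Cdh5, in each case with overlapping animals.

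**Figure D1:**
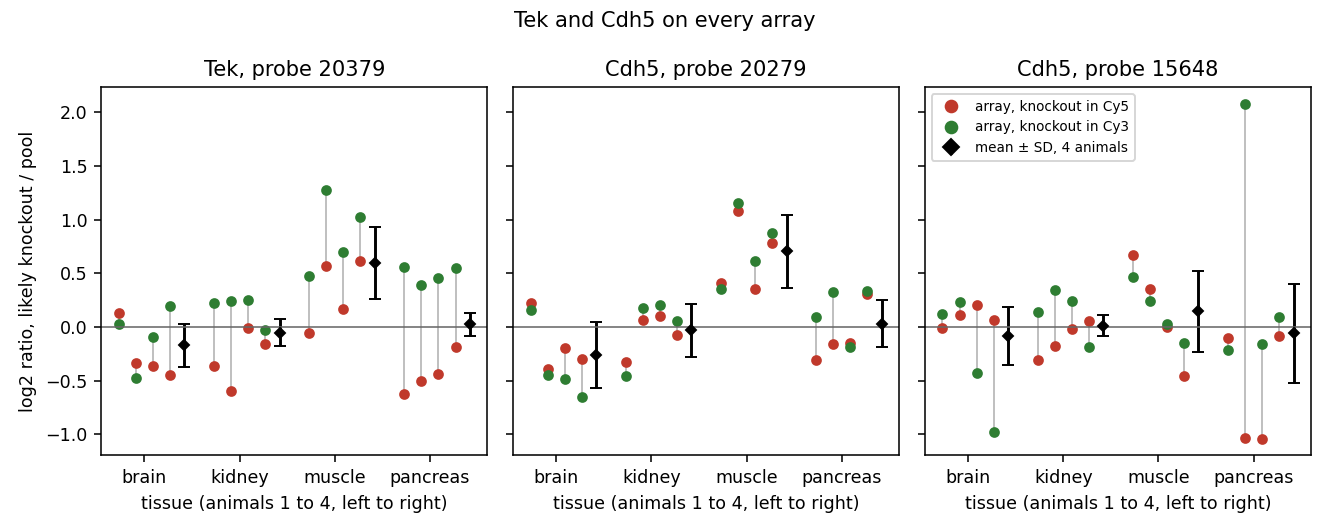
Log2 ratio (likely knockout over pool) of each probe of Tek and Cdh5 on every array, by tissue, with the 4 animals of a tissue side by side. Red points are arrays with the knockout in Cy5 and green points those with it in Cy3, a grey line joins the 2 arrays of an animal, and the black diamond and bar are the mean ± SD over 4 animals; Tek (mean 0.60) and Cdh5 probe 20279 (mean 0.70) stand above 0 in muscle, and Cdh5 probe 15648 (mean 0.14) does not stand apart.

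The 2 probes of Cdh5 did not give the same picture. Probe 20279 was at 0.38, 1.12, 0.49 and 0.83 in the muscle of animals 1 to 4, a mean of 0.70 ± 0.34 (SD, n = 4). Its 2 arrays of each muscle animal lay close together, at 0.41 and 0.36, 1.08 and 1.16, 0.35 and 0.62, and 0.78 and 0.88 (Cy5 array first). Probe 15648 was at 0.57, 0.30, 0.01 and −0.31 in the same animals, a mean of 0.14 ± 0.38 (SD, n = 4). Its highest muscle animal was the lowest on the other probe, and its muscle values overlapped with every other tissue. In brain, probe 20279 was at −0.26 ± 0.31 and probe 15648 at −0.09 ± 0.27 (SD, n = 4 each). In pancreas, probe 15648 spread from −0.60 to 0.52 over animals. Its arrays of animal 2 disagreed most, at −1.04 on the Cy5 array and 2.08 on the Cy3 array.

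Over the 16 animal and tissue values, Tek followed one Cdh5 probe and not the other. Pearson's r of Tek with probe 20279 was 0.92 (Spearman's rho 0.87), and with probe 15648 it was 0.09 (rho 0.16). The 2 Cdh5 probes correlated with each other at r = 0.34, less than Tek did with probe 20279. With the tissue means removed, r was 0.75 for Tek and probe 20279 and −0.29 for Tek and probe 15648, and without muscle (12 values) it was 0.70 and −0.08. These points share animals and arrays, so the correlations are descriptions.

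In muscle the dye orientation moved Tek more than Cdh5. Tek's mean log2 ratio in muscle was 0.32 on the 4 arrays with the knockout in Cy5 and 0.87 on the 4 with it in Cy3, and 7 of 8 arrays were above 0. In pancreas it was −0.44 and 0.49 on the same 2 kinds of array. All 4 pancreas arrays with the knockout in Cy5 lay below 0 and all 4 with it in Cy3 above, so the pancreas mean near 0 averages a pair of opposite values. In kidney Tek's means were −0.28 and 0.17. The Cy3 array was the higher of the 2 in all 4 animals of kidney, muscle and pancreas. For Cdh5 in muscle, with its 2 probes averaged, the means were 0.40 and 0.45. Then 8 of 8 arrays were above 0, as for 1.56% of all genes. By probe 15648 alone both muscle arrays of animal 4 were below 0, at −0.46 and −0.15. Nothing is read from that count, since the ratios were known when the pair was picked. In pancreas Cdh5 too had opposite means, −0.32 and 0.29, with the Cy3 array the higher in all 4 animals. With the Cy3 signs turned, Tek in brain minus muscle became 0.19 and Cdh5 0.16. The share of all genes with opposite values by dye was not counted. The mean with turned signs reflects the difference between the 2 orientations. By it limma called 2388 of 16377 genes in pancreas and 328 of 16662 in muscle. A difference by dye was thus not particular to Tek and Cdh5.

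Probe number moved with the result. Tek's only probe, 20379, and Cdh5 probe 20279 both lie in the highest twentieth of probe numbers (19756 to 20794), and Cdh5 probe 15648 does not. Of 819 measured probes in that twentieth, 106 (12.9%) had a mean muscle log2 ratio of at least 0.4, against 1.94% of the 16989 probes with lower numbers. The next highest of the 20 equal stretches of numbers, from 7279 to 8318, had 5.42%. Of the 106 probes, 97 also had a brain mean below −0.1. So did 120 of the 330 probes with lower numbers at 0.4 or more in muscle, and 248 of all 819 probes in the twentieth. Without Tek and Cdh5, the 104 others of the 106 probes had a median of 0.46, 1.36, 0.49 and 0.84 in the muscle of animals 1 to 4. In the brain of these animals their median was 0.12, −0.37, −0.19 and −0.37. Of the 330 probes elsewhere at 0.4 or more in muscle, the 315 with no animal value beyond 8 in size had a median of 0.23, 0.84, 0.59 and 0.79 in those muscles. Being high in muscle chose these probes, so their likeness to Tek there is fixed by that choice. Over the 12 values without muscle, the median of the 104 probes correlated at r = 0.61 with Tek, 0.88 with Cdh5 probe 20279 and 0.31 with Cdh5 probe 15648, and that of the 315 probes at 0.60, 0.76 and 0.12, over animals and arrays that all of them share. The levels of 0.4 and −0.1 and the split by number were chosen after the values were seen, and the sources do not say whether numbers follow positions on the slide. With a running median of neighbouring probe numbers subtracted on each array, Tek was at 0.47 in muscle and −0.55 for brain minus muscle, and Cdh5 at 0.40 in muscle. The median of the whole stretch in muscle was −0.01. Subtracting a median cannot remove a shift held by only some of the probes, so nothing is read from the values that remain. Tek has no probe elsewhere to set beside its 1 probe.

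**Figure D2:**
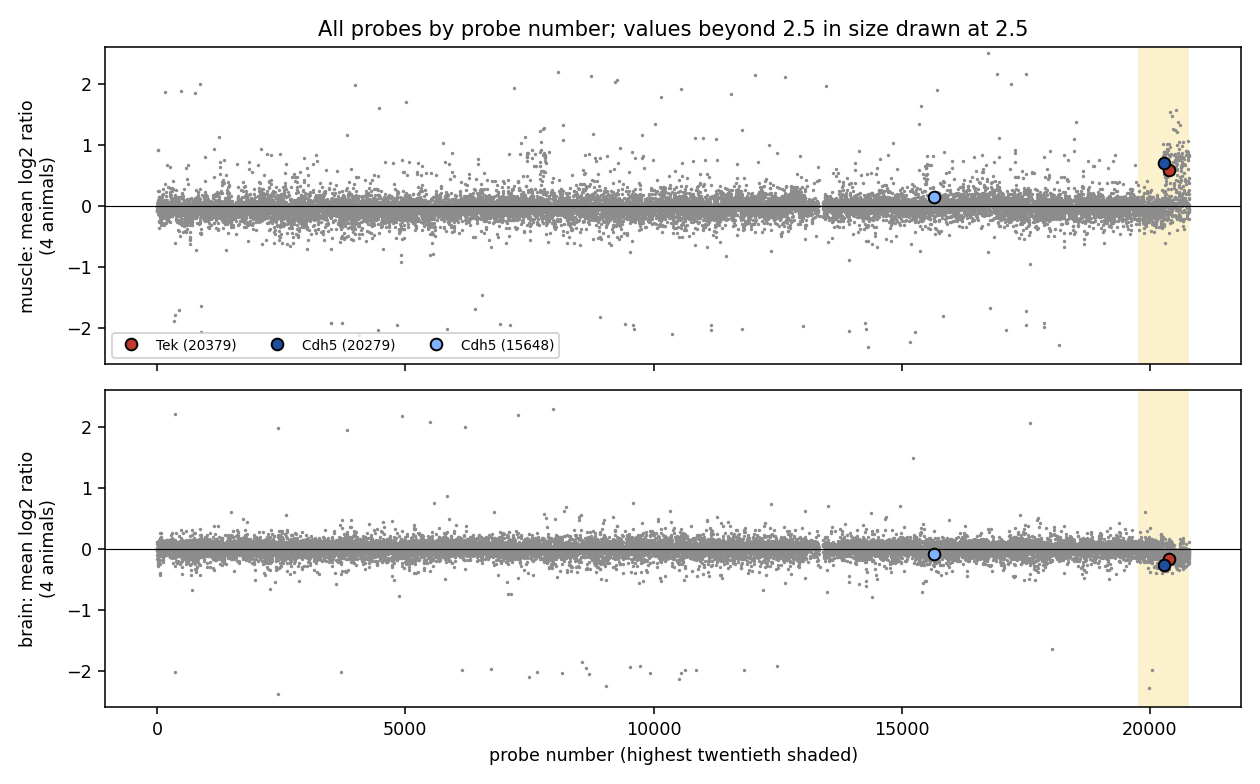
Mean log2 ratio over 4 animals of each probe measured in all animals, against probe number, in muscle (top) and brain (bottom), with the highest twentieth of numbers shaded and values beyond 2.5 in size drawn at 2.5. In muscle the shaded stretch holds a cloud of probes above 0.4 (12.9% of its probes), where Tek (0.60) and Cdh5 probe 20279 (0.70) lie, and Cdh5 probe 15648 (0.14) lies outside it.

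Genes with probes both inside and outside that stretch allow the same gene to be read in both places. There were 231 such genes, and 31 of them, Cdh5 included, were at 0.4 or more in muscle by their inside probes. Without Cdh5, the other 30 had a median of 0.78 by their inside probes and −0.02 by their outside probes, and 0 of them reached 0.4 outside (highest 0.38). They were picked for their inside value, and the reverse choice gave a like picture: of 3 genes at 0.4 or more by their outside probes, Abcf3, Acbd3 and Nacc1, the inside probes were at 0.22, −0.14 and −0.01. Neither direction is a test. Cdh1, the epithelial cadherin, was at 0.86 inside and −0.03 outside. Rhoa, a GTPase of the actin cytoskeleton, was at 0.75 and −0.06, and the growth factor Tgfb1 at 0.67 and −0.07. Cdh5, at 0.70 and 0.14, is one of these genes. The inside probe of Pecam1, an adhesion molecule of endothelium and platelets, was at −0.33 and its outside probe at −0.01, so not all inside probes were high. Over all 231 genes the muscle values of inside and outside probes correlated at r = 0.04. Probes of a gene that both lie outside were not compared, so this r is not shown to be particular to the stretch. Cdh1, Rhoa, Tgfb1, Pecam1, Abcf3, Acbd3 and Nacc1 were chosen after their values were seen.

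**Figure D3:**
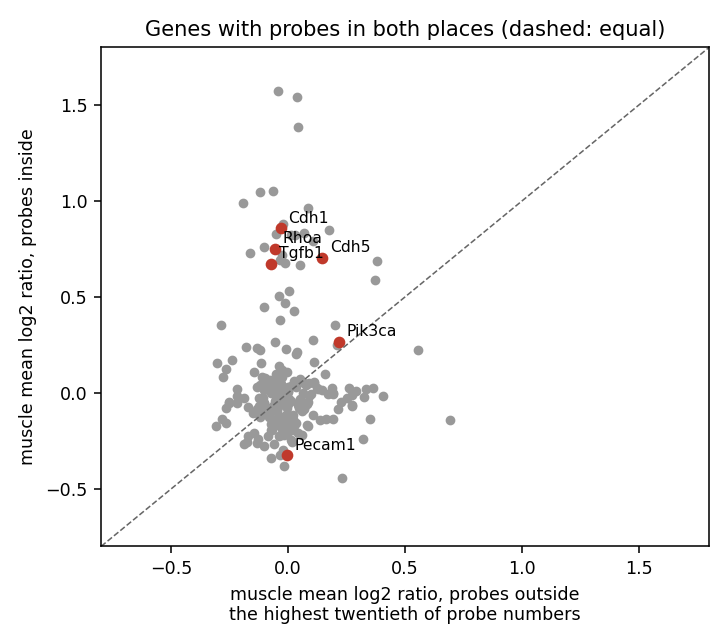
Mean muscle log2 ratio over 4 animals of 231 genes that have probes inside (vertical axis) and outside (horizontal axis) the highest twentieth of probe numbers; each point is a gene, the dashed line marks equal values and red points are named. The genes high on the vertical axis, Cdh1 (0.86) and Cdh5 (0.70) among them, lie far above the dashed line.

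Most other endothelial genes lay lower in muscle than Tek and Cdh5. The pair was picked with its ratios known, and 1.91% and 2.99% of all genes lay at or above Tek and Cdh5 there. That most markers lay lower thus follows from the choice, and nothing is read from it. Of 33 measured endothelial markers, 8 lay above 0 in muscle and 25 below, with a median log2 ratio of −0.08, where 41.6% of all 16662 genes were above 0 and their median was −0.02. Lmo2, a partner of haematopoietic and endothelial transcription factors, was the only marker above both Tek and Cdh5, at 0.64 ± 0.22 (SE, n = 4), and its 1 probe lies in the highest twentieth of numbers. The next marker was Robo4, an endothelial guidance receptor named after its value was seen, at 0.16. By probe 15648 alone Cdh5 was at 0.14, below Robo4. Limma called 0 of the 33 in muscle, where it called 0 of all genes (0%), and at an unadjusted p under 0.05 there was 1 higher marker, Lmo2, and 0 lower ones, where 7.29% of all genes were under it. Without the 8 markers with a probe in the highest twentieth the median was −0.09, and 5 of 25 lay above 0. With the signs of the Cy3 arrays turned, 17 of 33 lay above 0, as did 50% of all genes.

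The receptors that work beside Tek and other defining genes of endothelium had muscle means below 0. Tie1 was at −0.10 ± 0.07 (SE, n = 4), Kdr, the main VEGF receptor of endothelium, at −0.01 ± 0.11, and Flt1, its decoy relative, at −0.26 ± 0.16. The adhesion molecule Pecam1 was at −0.17 ± 0.08, Vwf, the clotting glycoprotein of endothelium, at −0.05 ± 0.07, and Nos3, endothelial nitric oxide synthase, at −0.17 ± 0.12. Each of the 6 had at most 2 of 4 muscle animals above 0.

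In the other tissues the endothelial markers centred near 0. Their medians were 0.01 in brain (18 of 33 above 0, against 53.4% of all genes), 0.00 in kidney (15 of 33, against 51.5%) and −0.01 in pancreas (14 of 31, against 50.4%). Brain Esam, an endothelial adhesion molecule, was at 0.21 ± 0.06 (SE, n = 4), kidney Egfl7, a matrix factor secreted by endothelium, at −0.20 ± 0.05, and pancreas Gja4, a gap junction protein, at −0.40 ± 0.11. Each had the same sign in all 4 animals and did not pass (limma, adjusted p = 0.773, 0.511 and 0.991). Limma called 0 markers in each of these tissues (background 0% of genes in each), with 3, 3 and 1 at an unadjusted p under 0.05, which 4.13%, 9.28% and 2.91% of all genes were under.

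**Figure D4:**
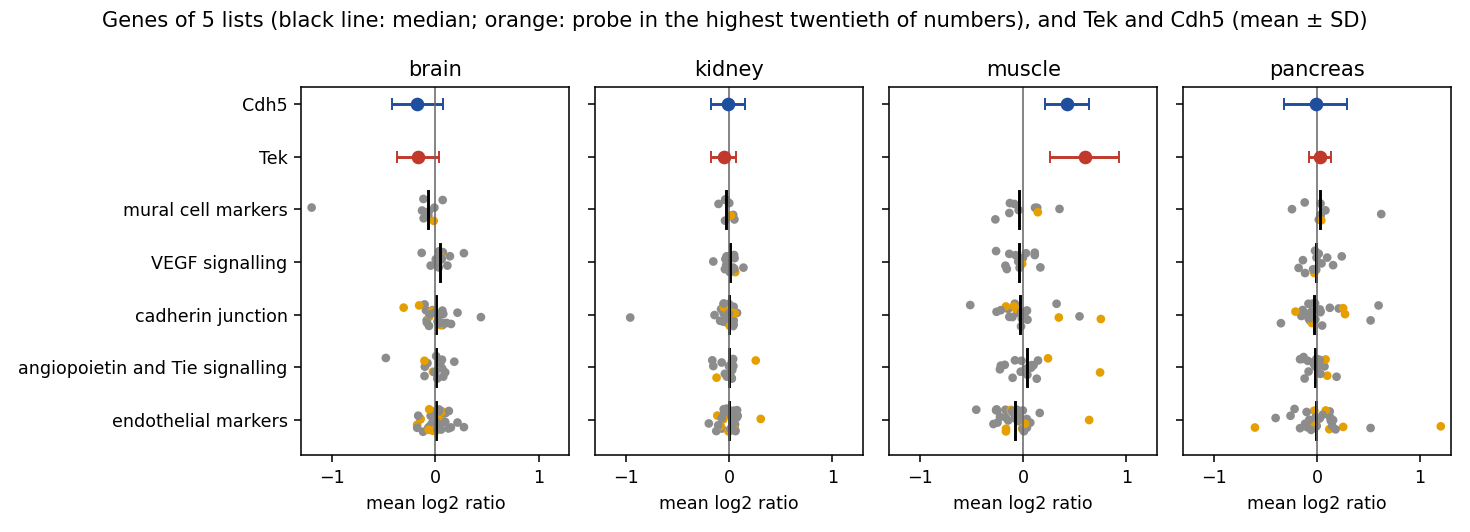
Mean log2 ratio of the genes of 5 lists in each tissue, with Tek and Cdh5 above them as mean ± SD over 4 animals; a point is a gene (orange where it has a probe in the highest twentieth of probe numbers), the black line is the list's median, and 2 values beyond 1.2 in size are drawn at 1.2. In muscle Tek (0.60) and Cdh5 (0.42) lie to the right of every list's median, and the endothelial markers have a median of −0.08. The pair was picked with these ratios known.

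In the angiopoietin pathway, 10 of 17 measured genes lay above 0 in muscle, with a median of 0.04 (−0.01 without animal 3 and −0.04 without animal 4). There 41.6% of all genes lay above 0, with a median of −0.02. The ligand gene Angpt2 was measured in 3 muscle animals and spread from −0.24 to 2.47, a mean of 0.75 ± 0.60 (SE, n = 3), and its probe too lies in the highest twentieth of numbers. Pik3ca, the catalytic subunit of the kinase that carries Tie2 signals to Akt, was at 0.24 ± 0.06 (SE, n = 4), above 0 in all 4 muscle animals. Its inside and outside probes gave 0.27 and 0.22. In kidney Pik3ca was at −0.12 ± 0.05 and Tnip2, a Tie2-binding inhibitor of NF-kappaB, at −0.15 ± 0.04, both below 0 in all 4 animals. In brain the adaptor Grb7 was at 0.18 ± 0.08 (SE, n = 4), and Sos1, an exchange factor for Ras named after its value was seen, at −0.48 ± 0.12 (SE, n = 3), below 0 in each of its 3 animals and not passing either (limma, adjusted p = 0.773 for both). Limma called 0 of the 17 in any tissue (0% of genes in each), and at an unadjusted p under 0.05 there were 1 higher and 1 lower in muscle, 2 lower in kidney, 1 lower in brain and 0 in pancreas. The share of all genes under it was 7.29% in muscle, 9.28% in kidney, 4.13% in brain and 2.91% in pancreas. Angpt1, Ptprb and Cldn5 were not analysed here.

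Of the partners of VE-cadherin at the junction, p120 catenin (Ctnnd1) was at −0.07 ± 0.07 (SE, n = 4) in muscle and 0.11 ± 0.06 in brain, and alpha-catenin (Ctnna1) at −0.01 ± 0.07 and −0.04 ± 0.05. Ctnnb1 and Jup had a value in at most 1 animal of a tissue and were not tested. Over 26 measured junction genes, 9 lay above 0 in muscle, with a median of −0.03, against 41.6% and −0.02 for all genes. Limma called 0 of them in any tissue, with 3 higher and 2 lower in muscle at an unadjusted p under 0.05, 2 and 1 in brain and 0 in kidney and pancreas. The share of all genes under it was 7.29% in muscle, 4.13% in brain, 9.28% in kidney and 2.91% in pancreas. All 26 junction genes are meant in the next sentence. The highest junction gene in muscle was Tjp1, the tight junction scaffold ZO-1, at 0.75 ± 0.16 there and −0.31 ± 0.11 in brain (SE, n = 4). Its difference of brain minus muscle, −1.06 ± 0.18 (SE), was the only call among the genes of the lists in any of the 6 pairs of tissues (limma, adjusted p = 0.0276, with all 4 muscle animals above 0 and all 4 brain animals below). The background was 0.461% of genes for that pair, 0.0123% for kidney and muscle, 0.578% for muscle and pancreas and 0% for the other 3. With the animal as a block 0 genes were called between brain and muscle (Tjp1: limma, adjusted p = 0.0755). With the signs of the Cy3 arrays turned, the Tjp1 difference changed sign to 0.19 and was not called (limma, adjusted p = 0.792). Without animals 2, 3 and 4 in turn Tjp1 was not called either (limma, adjusted p = 0.563, 0.229 and 0.454), and without animal 1 it was (0.00209). Of its 2 probes, 20383 lies in the highest twentieth of numbers and averaged 0.84 over 8 muscle arrays. The other, 8811, had a value on 6 muscle arrays, which averaged 0.61 and spread from −0.36 to 1.62. It had both arrays for 2 muscle animals, at −0.06 and 0.45, so the Tjp1 value of the other 2 rests partly on probe 20383 alone. Of the 75 genes called between brain and muscle, 21 (28%) had a probe there, as did 5.67% of the genes tested. Vav2, an exchange factor for Rac, was at 0.44 ± 0.11 in brain, and Rap1b, a GTPase that strengthens the junction, at −0.14 ± 0.07 in kidney and −0.15 ± 0.07 in pancreas (SE, n = 4 each).

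Among genes of VEGF signalling 12 of 14 lay above 0 in brain, against 53.4% of all genes, with a median of 0.05. The co-receptor Nrp2 was among them at 0.14 ± 0.05 (SE, n = 4), above 0 in all 4 animals. Nos3 had the highest mean of the list there, 0.28 ± 0.24, with 1 animal below 0. In muscle 4 of 14 lay above 0, against 41.6% of all genes, with a median of −0.04. The ligand Vegfb was at −0.15 ± 0.05 in kidney, and the small heat shock protein Hspb1 at −0.16 ± 0.07 in muscle and 0.24 ± 0.10 in pancreas. Of the mural cells that wrap vessels, 8 of 9 markers lay below 0 in brain, with a median of −0.07, Cspg4 (NG2) at −0.11 ± 0.06 among them. In muscle 4 of 9 lay above 0, with a median of −0.04. Pdgfrb, the receptor that recruits pericytes, was at −0.13 ± 0.10 there and Higd1b, a pericyte marker, at 0.35 ± 0.12. Limma called 0 genes of either list in any tissue (0% of genes in each), with 1 VEGF gene in brain, 1 in kidney and 1 mural marker in muscle at an unadjusted p under 0.05. Of all genes 4.13% were under it in brain, 9.28% in kidney and 7.29% in muscle.

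Markers of other cells that whole muscle can hold had medians below 0, as did all genes (median −0.02, 41.6% above 0). Of 12 macrophage markers 4 were above 0 in muscle, with a median of −0.11; some macrophages and monocytes carry Tie2. Of 8 blood cell markers 3 were above 0, with a median of −0.01, and of 5 markers of the muscle fibre itself 1, with a median of −0.07. Limma called 0 of them, with 2, 2 and 1 lower at an unadjusted p under 0.05 and 0 higher. In either direction 7.29% of all genes were under it in muscle. The part of cell composition in the ratios of Tek and Cdh5 was not tested.

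The genes with the pattern most like Tek over the 16 values, of 8050 compared, were P3h2, a collagen hydroxylase (r = 0.95), Sidt1, a nucleic acid transporter (0.95), Nbn, a DNA repair protein (0.94), Psmd2, of the proteasome (0.94), and Csf2, the cytokine GM-CSF (0.93). Their muscle means ran from 0.52 to 1.10. The nearest to Cdh5 were Lpar2, a lysophosphatidic acid receptor (0.92), the zinc finger gene Zfp24 (0.91), the cytokines Il11 (0.91) and Il18 (0.89), and the growth factor Fgf3 (0.88). Cdh5 ranked 206 among the neighbours of Tek, at r = 0.70, and Tek 173 among those of Cdh5. None of these 10 genes is on the list of endothelial markers. With at most 33 such markers among the 8050, that would hold for nearly any 10 genes. Of the 50 nearest to Tek 21 had a probe in the highest twentieth of numbers, and of the 50 nearest to Cdh5 29, where 8.04% of the genes compared had one. Tek and 1 Cdh5 probe lie in that twentieth, whose probes were more often high in muscle. These counts thus restate that pattern and are not separate support for it.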

How the data were processed

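The authors deposited log2 ratios of 2-colour cDNA arrays, with 1 value for each probe on each array. The logarithm's base is taken as 2 from how large they get. The sources used here do not give the scanner, background correction, normalisation or filters. An array held 19815 to 20684 values with a median of −0.07 to 0.05, and precision is set by the number of animals. Values beyond 8 in size (1844, with 0 of Tek or Cdh5) were kept. Pairs of arrays sharing tissue and dye orientation correlated at r from 0.06 to 0.25, and the 2 arrays of an animal at r from −0.37 to 0.04.

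A probe table named 12771 probes, and its 9030 symbols all matched RefSeq (GRCm38.p6). Probes of a symbol were averaged per array, then an animal's 2 arrays, both required. The 8023 unnamed probes were kept single. Limma (version 3.58.1, R 4.3.3) tested each tissue's mean against 0, and 6 tissue differences in a joint fit, two-sided, over genes with at least 3 animals per tissue, with Benjamini-Hochberg adjustment over all genes. SE is limma's moderated one and SD the plain spread. The spread between control animals does not enter, as their RNA was pooled. The fits were run on simulated normal noise with added shifts larger than the ratios of Tek and Cdh5. That checks the code, and does not cover dye effects, shared animals or extreme values.

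At an unadjusted p under 0.05 limma had 691 of 16729 genes in brain, 1562 of 16825 in kidney, 1215 of 16662 in muscle and 477 of 16377 in pancreas, and it called 0 in each after adjustment. Per the labels the same animals gave all tissues, so animal numbers pair them, and deviations of an animal in 2 tissues correlated at r from −0.09 to 0.10.

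The members and lists were chosen with earlier results of these data known. Named were fixed partners, per list and tissue the gene of smallest p with 1 sign in all animals, and the 5 nearest patterns to each member. Alternatives were centred or scaled arrays, turned Cy3 signs, values beyond 8 as missing, 1 array accepted, each dye alone, each animal left out, complete animals, the animal block, fits of 2 tissues and single probes. Leaving out the highest twentieth of probe numbers, and subtracting a running median of 201 neighbouring probes, were chosen after seeing the data.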

Additional observations from a re-analysis of the deposited data

Results flagged for a closer look

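Of 81 sets of 4 animals checked, 2 had a lone high value, and chance marks about 1 in 20 sets. Ctnnd1 in pancreas reached 0.13 in animal 4, where the other 3 animals had −0.15 to −0.13. Zfp24 in muscle reached 0.58 in animal 2, where the other 3 had 0.29 to 0.33.

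Of 151 pairs of tissues looked at over the named genes, 3 stood out. Tjp1 differed by −1.06 for brain minus muscle, called by limma's test of that difference with the signs as deposited. With the Cy3 signs turned its difference was 0.19 and not called. Hspb1 was below 0 in every muscle animal and above 0 in every pancreas animal (muscle minus pancreas −0.40). Pik3ca was below 0 in every kidney animal and above 0 in every muscle animal (kidney minus muscle −0.36). Limma's fit of these differences across all genes did not call Hspb1 or Pik3ca, so neither is shown to differ.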

How the results depend on the processing

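Of 294 values of Tek and Cdh5 under the alternatives, 256 stayed within 1 SD of the reported value, 38 moved further and 35 changed sign; of 152 counts of called genes, 52 moved by over 1.5 times. The cause was not tested unless the alternative's construction gives it.

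With the signs of the Cy3 arrays turned, Tek was at −0.23 in kidney, −0.27 in muscle and −0.46 in pancreas, and Cdh5 at 0.14 in brain and −0.026 in muscle. Tek then differed by 0.14 (brain minus kidney), 0.19 (brain minus muscle), 0.38 (brain minus pancreas), 0.047 (kidney minus muscle), 0.24 (kidney minus pancreas) and 0.19 (muscle minus pancreas), and Cdh5 by 0.21, 0.16, 0.44 and −0.050 for the first 4. Called were 1 gene in brain, 328 in muscle and 2388 in pancreas, and between tissues 1 (brain and muscle), 1510 (brain and pancreas), 0 (kidney and muscle), 355 (kidney and pancreas) and 5 (muscle and pancreas).

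On the Cy5 arrays alone, Tek was at −0.28 in kidney and −0.44 in pancreas, and differed by 0.18 (brain minus pancreas) and 0.16 (kidney minus pancreas), and Cdh5 by 0.28 (brain minus pancreas) and 0.72 (muscle minus pancreas). Counts were 1 in brain, 1 in pancreas, 1 (brain and muscle), 603 (brain and pancreas), 0 (kidney and muscle), 131 (kidney and pancreas) and 191 (muscle and pancreas). On the Cy3 arrays alone, Tek was at 0.17 in kidney and 0.49 in pancreas, and differed by −0.58 (brain minus pancreas) and −0.32 (kidney minus pancreas), and Cdh5 by −0.60 and 0.16 (muscle minus pancreas). Counts were 1 in muscle, 2, 18, 0, 3 and 13 for the pairs in the same order.

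With the animal as a replicate block, which pairs the tissues, counts were 0 (brain and muscle), 0 (kidney and muscle) and 24 (muscle and pancreas); fits of only 2 tissues gave 0 for each of these. Scaled arrays gave 18 (brain and muscle) and 1 (kidney and muscle). Values beyond 8 as missing gave 1 in kidney, 114 (brain and muscle) and 151 (muscle and pancreas). Accepting 1 array of an animal gave 0 (kidney and muscle) and 54 (muscle and pancreas).

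Cdh5 by probe 15648 alone, and without the highest twentieth of probe numbers, which leaves that probe, was at 0.14 in muscle, −0.23 for brain minus muscle and −0.13 for kidney minus muscle. By probe 20279 alone these were 0.70, −0.97 and −0.74. Without that twentieth no Tek probe is left, and 56 genes were called between muscle and pancreas. With the running median subtracted, Tek was at −0.55 for brain minus muscle.

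Leaving out each animal in turn moved Tek between 0.49 and 0.72 in muscle and between −0.98 (without animal 1) and −0.58 (without animal 2) for brain minus muscle, and Cdh5 between 0.33 and 0.48 in muscle. Counts of called genes ran from 0 to 1 in brain, in muscle and for brain and kidney, from 0 to 223 for brain and muscle, 0 to 7 for brain and pancreas, 0 to 44 for kidney and muscle, 0 to 3 for kidney and pancreas and 1 to 115 for muscle and pancreas. The highest of the counts for muscle against another tissue were without animal 1, and those without animals 2, 3 or 4 were at most 3. Precision is limited by 4 animals and pooled controls, and spot brightness was not analysed here.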

Other observations

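Of the other lists, 5 of 7 classical cadherins other than Cdh5 lay above 0 in muscle, with a median log2 ratio of 0.06, and 2 of 7 in brain, with a median of −0.05. Of the 3 without a probe in the highest twentieth of numbers, 2 lay above 0 in muscle, with a median of 0.00. Neuron markers had a median of 0.06 in brain (3 of 5 above 0), markers of kidney tubule and glomerulus 0.04 in kidney (2 of 4) and pancreatic acinar and islet markers 0.02 in pancreas (2 of 3). The share of all genes above 0 was 41.6% in muscle, 53.4% in brain, 51.5% in kidney and 50.4% in pancreas. Limma called 0 genes of these lists in any tissue, with 1 higher and 1 lower cadherin in muscle and 1 lower neuron marker in kidney at an unadjusted p under 0.05. Of all genes 7.29% were under it in muscle and 9.28% in kidney.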
